A study of Rattus norvegicus with 4 samples.

Results

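Nuclei with a transcript of Isl1 together with a GABA-synthesis gene made up 136 of the 21606 barcodes recovered from the rat ventral tegmental area, and 103 of the 136 came from 1 library. They were selected on raw UMI counts, the numbers of distinct transcript molecules read per nucleus. A nucleus entered with at least 2000 UMIs in all, at least 1 of Isl1, at least 1 of Gad1 and Gad2 together, and at most 1 of the dopamine transporter gene Slc6a3. These Isl1 GABA nuclei were compared with 1165 other GABA nuclei, which had at least 1 UMI each of Gad1 and Slc32a1 and none of Isl1. Tissue came from untreated Sprague-Dawley rats of 90 to 120 days of age. The 4 libraries were female 1, female 2, male 1 and male 2, and each pooled the tissue of 3 rats of 1 sex, so the pool and not the rat was the replicate. Nuclei were sorted with a DNA dye before droplet 3′ sequencing. No label says where in the dissected tissue a nucleus lay.

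Isl1 encodes a LIM-homeodomain transcription factor that takes part in making motor neurons, sensory neurons and several forebrain neurons. In the hypothalamus it is known from the arcuate nucleus, where Agrp neurons drive feeding and Pomc neurons restrain it. Gad1 and Gad2 encode the enzymes that make GABA, and Slc32a1 encodes the transporter that loads it into vesicles. Histamine neurons, known from the tuberomammillary nucleus of the posterior hypothalamus, make histamine with the enzyme encoded by Hdc and also carry Gad1.

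These 3 genes, Hdc, Agrp and Pomc, define the transmitter and peptide identities on which the results turn, and the 250 bases before their transcription starts are printed because homeodomain factors are known to bind a TAAT core. The sequences are from RefSeq on the GRCr8 build, in which all of these genes were matched by symbol, whereas the counts were made on rn6. Capitals mark TAAT or its reverse complement ATTA.
Hdc, chr3:134318705-134318954, minus strand: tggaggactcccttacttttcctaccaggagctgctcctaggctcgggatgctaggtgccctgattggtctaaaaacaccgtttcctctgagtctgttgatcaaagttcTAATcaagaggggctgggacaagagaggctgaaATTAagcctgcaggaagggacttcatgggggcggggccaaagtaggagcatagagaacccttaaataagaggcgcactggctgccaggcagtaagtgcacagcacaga
Agrp, chr19:50359498-50359747, minus strand: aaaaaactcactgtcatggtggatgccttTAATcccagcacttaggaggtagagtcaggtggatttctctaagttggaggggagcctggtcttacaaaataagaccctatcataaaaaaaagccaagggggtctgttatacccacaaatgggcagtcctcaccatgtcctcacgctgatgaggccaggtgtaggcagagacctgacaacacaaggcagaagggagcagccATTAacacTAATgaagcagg
Pomc, chr6:32659103-32659352, plus strand: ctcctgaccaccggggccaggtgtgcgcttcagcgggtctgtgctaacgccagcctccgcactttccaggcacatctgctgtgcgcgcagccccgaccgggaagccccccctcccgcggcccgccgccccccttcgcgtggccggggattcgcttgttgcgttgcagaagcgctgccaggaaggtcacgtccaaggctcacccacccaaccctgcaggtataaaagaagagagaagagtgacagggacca
TAAT on either strand occurred 2 times before Hdc, 3 times before Agrp and 0 times before Pomc, and 56.97% of 33469 promoter windows of this length held at least 1. The longer word CTAATG (reverse complement CATTAG), which contains TAAT, occurred once, 13 bases before the Agrp start, and 7.48% of all windows held it. These matches describe letters and not binding sites.

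Isl1 transcripts were sparse and nearly free of background. The 4 libraries held 346 Isl1 UMIs in 164 barcodes, and of 5692 nuclei with the oligodendrocyte transcripts Mog and Mag and no Gad1, Gad2 or Slc17a6 UMI, 1 had an Isl1 UMI. Slc32a1 was not part of that limit, and 0.761% to 1.10% of these nuclei had it in each library. Just inside the limits, 67 of the 136 nuclei had exactly 1 Isl1 UMI, 6 had a Gad1 and Gad2 sum of 1, 2 had 1 Slc6a3 UMI and 2 were within 500 UMIs of the depth limit. Just outside, 26 Isl1 nuclei had neither Gad gene, and none was lost to the Slc6a3 limit or to the depth limit. Median UMIs per Isl1 GABA nucleus were 5793.5, 9016, 7629 and 5738 in female 1, female 2, male 1 and male 2, against 7853, 7825, 8361.5 and 6258 for other GABA nuclei. High doublet scores were found in 8 of the 136 nuclei, and 36 barcodes occurred in more than 1 library, none of them among the 136.

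Defining markers of arcuate neurons were found in few of the nuclei. Gad1 was found in 118 of the 136, Gad2 in 94, both in 76 and Slc32a1 in 51. Agrp reached 3 UMIs in 7 nuclei and Pomc in 2, all from male 1. The name Isl1 GABA nuclei is therefore used, after the rule that chose them.

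Isl1 GABA nuclei were 0.402% of barcodes with at least 2000 UMIs in female 1 (exact 95% interval 0.220 to 0.673, 14 of 3485). They were 0.100% in female 2 (0.0273 to 0.256, 4 of 3990) and 0.318% in male 2 (0.178 to 0.524, 15 of 4715). In male 1 they were 3.32% (2.71 to 4.01, 103 of 3106), and its interval lay above those of the other 3 libraries. The intervals cover counting error only. As a share of the GABA nuclei of both kinds, the values were 4.64%, 1.21%, 28.1% and 4.97% in female 1, female 2, male 1 and male 2. That share joins unlike limits, since Isl1 GABA nuclei did not have to carry Slc32a1 and other GABA nuclei did. Nuclei that met every limit of Isl1 GABA nuclei except Isl1, with no Isl1 UMI, numbered 632, 705, 557 and 677 in that order. Other GABA nuclei numbered 288, 326, 264 and 287, so male 1 had the fewest of them. The mean share was 0.251% ± 0.213 (SD, n = 2) in females and 1.82% ± 2.12 (SD, n = 2) in males, and the difference did not pass (exact two-sided permutation p = 0.667, where 0.3333 is the smallest possible). Without male 1 the difference, female minus male, moved from -1.57 to -0.0671 percentage points.

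**Figure D1:**
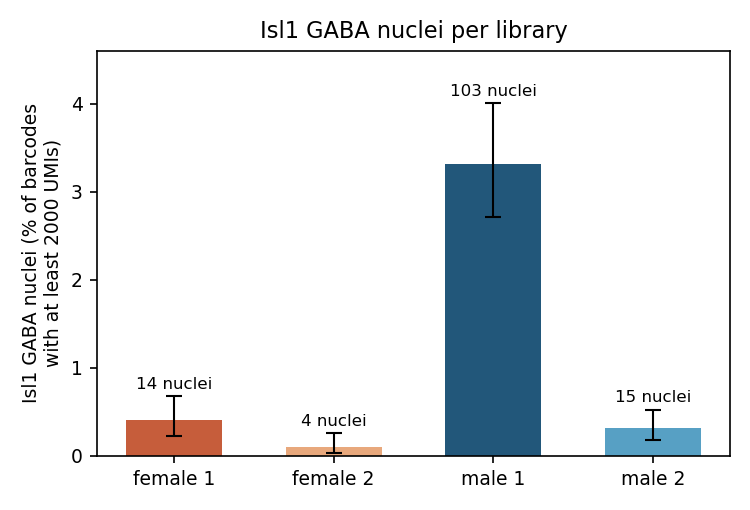
Isl1 GABA nuclei as a percentage of barcodes with at least 2000 UMIs, by library, with the number of nuclei above each bar and exact 95% binomial intervals as error bars. Male 1 stands at 3.32%, and the other 3 libraries lie between 0.100% and 0.402%.

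To ask which genes set Isl1 GABA nuclei apart from other GABA nuclei, UMIs were summed per library and group and compared within libraries. The 3 libraries with at least 10 nuclei in both groups entered (female 1, male 1 and male 2), and the genes of the gates were left out. Of 11340 genes tested, 785 passed (6.92%), with 252 higher (2.22%) and 533 lower (4.7%) in Isl1 GABA nuclei, by edgeR's quasi-likelihood test at an adjusted p under 0.05. DESeq2 called 280 (2.57% of 10900 with an adjusted p), with 139 higher (1.28%) and 141 lower (1.29%), and of 71 named or list genes called by edgeR that it gave an adjusted p it called 35 in the same direction. The median log2 difference of all tested genes was -0.08. Values below are CPM, UMI counts scaled to a common total of the summed group, given in the order female 1, female 2, male 1 and male 2. Female 2 held 4 Isl1 GABA nuclei and did not enter this test. Its counts do enter the ratios of depth-scaled sums and the fold limits from a floor of 3 counts, which sum all 4 libraries. A lower summed level can come from fewer nuclei with the transcript or from less transcript per nucleus, which cannot be told apart in sums.

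Hdc, the gene of the histamine-making enzyme, differed most among the increases. Its level was 655, 1736, 190 and 1551 CPM in Isl1 GABA nuclei, and 0, 0.356, 0 and 0.516 CPM in other GABA nuclei. The groups did not overlap in any library, and the log2 difference was 11.49 ± 0.39 (SE, adjusted p = 8.96e-18). Other GABA nuclei held 2 Hdc UMIs in all, against 464 in Isl1 GABA nuclei, a ratio of depth-scaled sums of 1920 with a counting interval of 528 to 15897. The gates bear on this ratio, because other GABA nuclei had to carry Slc32a1, which was found in 6 of the 27 Hdc-positive Isl1 GABA nuclei. With the same Gad1, Slc32a1, Slc6a3 and depth limits on both groups, which left 4, 0, 37 and 6 Isl1 GABA nuclei, the log2 difference was 9.79 (adjusted p = 9.67e-43). That value rests on 6 nuclei with Hdc, with 2 UMIs in female 1, 28 and 7 in male 1, and 20, 3 and 1 in male 2. Hdc-positive nuclei numbered 6 of 14, 4 of 4, 7 of 103 and 10 of 15, so male 1, which had most of the Isl1 GABA nuclei, had no more Hdc-positive ones than male 2.

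Counts of Hdc per positive nucleus ran from 1 to 53, with a median of 17. Thinned to 2000 UMIs per nucleus, Hdc was found in 32.7%, 79.9%, 6.51% and 62.5% of Isl1 GABA nuclei, against at most 0.111% of other GABA nuclei and at most 0.180% of oligodendrocyte nuclei. Unthinned, the shares of Isl1 GABA nuclei were 42.9%, 100%, 6.80% and 66.7%. Over all 21606 barcodes, 30 nuclei had at least 3 Hdc UMIs, in 5, 4, 9 and 12 of the libraries' barcodes in order. All 30 had Gad1, 2 had Gad2 and 25 had Isl1.

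The GABA-synthesis gene of the Hdc-positive nuclei was mostly Gad1. All 27 had Gad1 and 2 had Gad2 (7.41%), whereas 91 of the 109 Hdc-negative nuclei had Gad1 and 92 had Gad2 (84.4%). Slc18a2, the vesicular monoamine transporter, was found in 22 of 27 and 6 of 109. Prph, a neuronal intermediate filament, was found in 21 of 27 and 9 of 109. Maob, Wif1 and Prss23, which were picked after their values were seen, were found in 20, 24 and 23 of the 27 and in 10, 10 and 1 of the 109. The neuropeptide galanin gene Gal was found in 15 of 27 and 8 of 109. No Agrp UMI was read in the 27, which allows up to 11.1% of them with a UMI and sets no limit on expression. These counts describe nuclei within the group and were not tested.

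The sums followed the same genes. Slc18a2 stood at 196, 700, 43.4 and 214 CPM in Isl1 GABA nuclei and at 6.76, 7.48, 11.1 and 6.19 CPM in other GABA nuclei (log2 difference 3.67 ± 0.45, SE, adjusted p = 2.47e-06). Prph stood at 145, 285, 42.3 and 257 CPM against 8.75, 6.06, 9.87 and 12.9 CPM (log2 3.32 ± 0.39). Gal stood at 42.5, 51.8, 103 and 407 CPM against 3.98, 3.21, 6.17 and 1.55 CPM (log2 4.97 ± 0.47). Each was higher in Isl1 GABA nuclei of every library. Under the same limits on both groups Slc18a2 (log2 2.19, adjusted p = 0.052) and Prph (1.89, adjusted p = 0.066) did not pass, and Gal did (5.59). Under those limits Gal rested mostly on 1 nucleus of male 1 with 74 UMIs and 1 of male 2 with 20. The serine protease gene Prss23 (log2 7.84), the platelet-derived growth factor receptor gene Pdgfrb (6.44), the Wnt-pathway transcription factor gene Lef1 (6.19), the hypothalamic homeobox gene Bsx (5.93) and the scramblase gene Plscr4 (5.73) were next in size to Hdc. Plscr1, Gdpd4, Synpo2, Slc35d3, the mitochondrial carrier gene Ucp2 and the neuropeptide S receptor gene Npsr1 had log2 differences of 3.78 to 4.39, and with Gal, Pomc and Slc18a2 they made up the rest of the 15 largest increases.

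**Figure D2:**
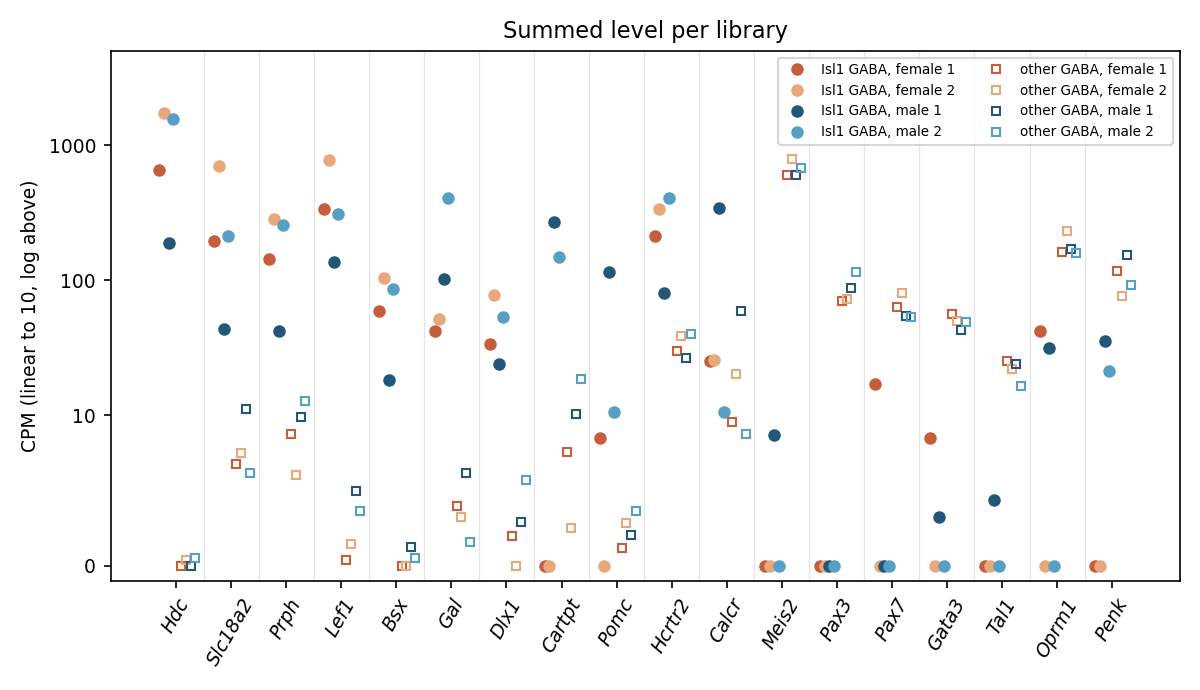
Summed level in CPM (linear up to 10, logarithmic above) of 18 genes by library, with filled circles for Isl1 GABA nuclei and open squares for other GABA nuclei. Hdc lies between 190 and 1736 in the circles and at or under 0.516 in the squares, and Meis2 lies between 600 and 789 in the squares and at or under 8.68 in the circles.

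Not all of these genes belonged to the Hdc-positive nuclei. Lef1 stood at 340, 777, 138 and 310 CPM against 0.398, 1.43, 4.94 and 3.61 CPM, and was found in 23 of 27 Hdc-positive and 34 of 109 Hdc-negative nuclei. Npsr1 was found in 0 of 27 and 17 of 109. When the Hdc-positive nuclei were left out, 8, 0, 96 and 5 Isl1 GABA nuclei remained, most of them of male 1. With all libraries that held any of these, 470 genes passed in place of 785. Lef1 (log2 6.00), Npsr1 (5.08), Gal (4.95), Bsx (3.93) and Dlx1 (3.70) still passed, with adjusted p of at most 0.0024. Among the Hdc-negative nuclei, Bsx was found in 1, 0, 11 and 0, so that its call rests mostly on male 1. Lef1 was found in 7, 0, 24 and 3 of them, Npsr1 in 1, 0, 13 and 3, and Dlx1 in 3, 0, 12 and 3. Gal then rests mostly on 2 nuclei, 1 of male 1 with 74 UMIs and 1 of male 2 with 20, out of 107 UMIs in 109 nuclei. Prph (log2 0.97, adjusted p = 0.61) and Wif1 (0.09, adjusted p = 0.99) did not pass.

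Of 7 arcuate and feeding peptide genes, 2 had counts enough to be tested, Pomc and Cartpt, and both were higher. Among all genes tested 2.22% were higher. Agrp, which encodes a melanocortin receptor antagonist, had 0, 0, 100 and 0 UMIs in Isl1 GABA nuclei, or 109 CPM in male 1. It was found in 8 nuclei of male 1. No Agrp UMI was read in the 14, 4 and 15 nuclei of female 1, female 2 and male 2, which allows shares with a UMI of up to 21.4%, 75.0% and 20% and sets no limit on expression. The 7 nuclei with at least 3 UMIs held 9 to 18 each, 4 of them had the co-transmitter gene Npy and none had Cartpt or Hdc. Over all barcodes, Agrp reached 3 UMIs in 11 nuclei, all of male 1, and 8 of them had Isl1. Oligodendrocyte nuclei of the 4 libraries held 10 Agrp UMIs in all.

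Pomc, the precursor gene of the melanocortins and beta-endorphin, stood at 8.50, 0, 116 and 10.7 CPM against 1.19, 2.85, 2.06 and 3.61 CPM (log2 4.43 ± 0.60, SE, adjusted p = 1.15e-05). Of its 109 UMIs, 71 and 27 were in 2 nuclei of male 1, so that the sum rests on them. Both nuclei had Cartpt (17 and 15 UMIs), and the one with 71 had 44 UMIs of the prolactin receptor gene Prlr. Pomc could not be tested without male 1. The satiety peptide gene Cartpt stood at 0, 0, 269 and 150 CPM against 7.55, 2.49, 10.3 and 18.6 CPM (log2 3.50 ± 0.45, SE, adjusted p = 5.46e-06). It was not higher in female 1, it did not pass without male 1 (log2 2.22, adjusted p = 0.081), and DESeq2 gave an adjusted p of 0.69.

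Of 10 tested genes among 21 other hypothalamic peptides, 2 were higher (Gal and Trh), 3 were lower (Vip, Penk and Tac1) and 5 did not pass. The median log2 difference was -0.71. Over all genes tested 2.22% were higher and 4.7% lower. Trh, the thyrotropin-releasing hormone gene, stood at 25.5, 0, 20.6 and 0 CPM against 0.795, 0, 3.29 and 3.61 CPM (log2 2.61 ± 0.76, adjusted p = 0.033), and was not higher in male 2. DESeq2 did not call Trh (adjusted p = 0.16). Penk, the enkephalin precursor gene, stood at 0, 0, 35.8 and 21.4 CPM against 118, 76.6, 155 and 91.8 CPM (log2 -2.40 ± 0.34). Tac1, the substance P precursor gene, had a log2 difference of -1.61 ± 0.24. Vip had no UMI in Isl1 GABA nuclei and was at least 5.0-fold lower, against a floor of 3 counts over the group (2.56 CPM), but it did not pass with DESeq2 (adjusted p = 0.14) or without male 1 (0.31).

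Single nuclei carried other peptides at high counts. The melanin-concentrating hormone gene Pmch had 1112 UMIs, 1107 of them in 1 nucleus of male 1 that also held 77 of Cartpt. Oligodendrocyte nuclei held 0, 1, 23 and 7 Pmch UMIs, and whether these were free transcripts was not tested. Another nucleus of male 1 held 36 UMIs of the galanin-like peptide gene Galp and 94 of Cartpt. One nucleus of male 1 held 74 of the 140 Gal UMIs and 1 of male 2 held 20. Somatostatin (Sst) reached 3 UMIs in 14 nuclei, 13 of them in male 1, and its sums did not pass (log2 -0.39 ± 0.35, adjusted p = 0.64). Oxt, the oxytocin gene, had no UMI in either group.

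Among 33 hypothalamic and forebrain transcription factor genes, 8 were tested, of which 4 were higher, 1 was lower and 3 did not pass. The shares over all genes tested were 2.22% higher and 4.7% lower. Dlx1, a homeobox gene of forebrain GABA neurons, stood at 34.0, 77.7, 23.9 and 53.5 CPM against 1.99, 0, 2.88 and 5.67 CPM (log2 3.23 ± 0.59, SE, adjusted p = 0.000535). Its relative Dlx5 was found in 12 nuclei (log2 3.45 ± 0.94, adjusted p = 0.021) and did not pass without female 1 (log2 2.69, adjusted p = 0.11). Bsx stood at 59.5, 104, 18.4 and 85.6 CPM against 0, 0, 1.23 and 0.516 CPM. The forkhead gene Foxp2 stood at 748, 155, 400 and 203 CPM against 190, 225, 218 and 203 CPM (log2 0.96 ± 0.25). It was higher in the tested libraries except male 2, where both sums were 203, and it did not pass without female 1 (log2 0.52, adjusted p = 0.32), without male 1 (log2 1.12, adjusted p = 0.054) or with DESeq2 (log2 0.95, adjusted p = 0.29). Lhx1 had no UMI in Isl1 GABA nuclei and was at least 3.71-fold lower, but did not pass without male 1 (adjusted p = 0.44). Tbx3, known from the arcuate nucleus, was found in 6 Isl1 GABA nuclei and Nkx2-1, known from the ventral hypothalamus, in 8.

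Of 27 midbrain GABA transcription factor genes, 18 were tested, and 9 were lower, none was higher and 9 did not pass. The median log2 difference was -2.52, against -0.08 over all genes, of which 4.7% were lower and 2.22% higher. Meis2, a homeobox gene of midbrain and forebrain GABA neurons, stood at 0, 0, 8.68 and 0 CPM against 600, 789, 605 and 676 CPM (log2 -6.56 ± 0.38, SE, adjusted p = 2.07e-12). It was found in 3 of 136 Isl1 GABA nuclei and in 474 of 1165 others. Its relative Meis1, not on the list, followed the same order (log2 -5.31 ± 0.41). Pax3, a paired-box gene of the dorsal midbrain, had no UMI in Isl1 GABA nuclei and 70.4, 72.7, 88.0 and 115 CPM in the others, so that it was at least 33.0-fold lower. Pax7 (log2 -4.85), Zfpm1 (-4.24), Irx5 (-3.91), Gata3 (-3.68), Tal1 (-2.80), Irx1 (-2.62) and En2 (-2.44) were the other genes of the list that were lower. Gata3 and Tal1 are known as transcription factor genes of GABA neurons.

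Without male 1, 3 of 15 tested genes of that list passed, Pax3, Meis2 and Gata3. The other 6 kept their direction without passing. Fitted values were log2 -7.65 (Tal1), -7.36 (Zfpm1), -6.88 (Irx5), -2.69 (Pax7), -1.21 (En2) and -0.75 (Irx1). Fits as large as those of Tal1, Zfpm1 and Irx5 can come from genes without a UMI in the remaining libraries. Their size is therefore not a measured fold difference. With DESeq2, 3 of the 9 passed, Meis2, Pax7 and Gata3. Those that did not were Pax3 (adjusted p = 0.067), Zfpm1 (0.080), Tal1 (0.12), Irx5 (0.21), Irx1 (0.24) and En2 (0.33). Under the same limits on both groups, by edgeR, Meis2, Pax3 and Pax7 passed, and Gata3 did not (log2 -2.29, adjusted p = 0.052). Zfpm1 (adjusted p = 0.28), Tal1 (0.43), Irx5 (0.44), Irx1 (0.24) and En2 (0.60) did not pass there either. Zfpm2 (log2 -0.29 ± 0.21, adjusted p = 0.56) and Sox14 (0.49 ± 0.39, adjusted p = 0.59) did not pass in the 3 libraries. Lum and Meox2, which are not on the list, were among the 10 largest decreases and had no UMI in Isl1 GABA nuclei, at least 20.6-fold and 12.3-fold lower. Drd2 (log2 -4.28), the tyrosine kinase receptor gene Kit (-4.26), the oxidase gene Nox4 (-4.12) and Cnksr3 (-4.03) completed that set with Pax3, Meis2, Meis1 and Pax7. Lum (adjusted p = 0.14) and Drd2 (0.062) did not pass with DESeq2, nor Meox2 (0.12), Drd2 (0.35) and Cnksr3 (0.15) without male 1.

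Of 33 hormone and feeding receptor genes, 17 were tested, and 2 were higher, 3 lower and 12 did not pass. The median log2 difference was -0.07. Over all genes tested 2.22% were higher and 4.7% lower. Hcrtr2, an orexin receptor gene, stood at 213, 337, 80.3 and 407 CPM against 30.2, 38.5, 26.7 and 40.2 CPM (log2 2.43 ± 0.28, SE, adjusted p = 1.37e-06). It was found in 20 of 27 Hdc-positive and 27 of 109 Hdc-negative nuclei, and did not pass under the same limits on both groups (log2 1.04, adjusted p = 0.37). Calcr, the calcitonin receptor gene, stood at 25.5, 25.9, 341 and 10.7 CPM against 9.54, 20.3, 59.2 and 8.77 CPM (log2 2.17 ± 0.32, adjusted p = 4.8e-05). It did not pass without male 1 (log2 0.97, adjusted p = 0.76), and the 30 nuclei with at least 3 Calcr UMIs were all from male 1. Thinned to 2000 UMIs, Calcr was found in 4.64%, 7.02%, 28.7% and 1.58% of Isl1 GABA nuclei, and in 1.09%, 1.71%, 4.66% and 0.916% of others. Unthinned, the first of these 2 sets was 21.4%, 25.0%, 40.8% and 6.67%. The mineralocorticoid receptor gene Nr3c2 and the receptor genes Trhr and Tacr3 were lower (log2 -0.95, -2.10 and -1.39). With DESeq2 none of these 3 passed (adjusted p = 0.21, 0.070 and 0.15), while Hcrtr2 and Calcr did. Nr3c2 did not pass without female 1 (adjusted p = 0.18), nor Tacr3 without male 1 (0.098).

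Esr1, Esr2, Pgr and Prlr did not pass. Esr1, an estrogen receptor gene, stood at 93.5, 51.8, 86.8 and 0 CPM against 34.2, 23.9, 27.6 and 27.3 CPM (log2 1.17 ± 0.37, adjusted p = 0.055). It lay above the other GABA nuclei in 3 of 4 libraries. Pgr, the progesterone receptor gene, and Prlr had log2 differences of 0.34 ± 0.41 and 0.16 ± 0.41. The leptin receptor gene Lepr was listed at 0 in both groups.

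Opioid and monoamine receptor genes were lower or did not pass. Of 12 tested of 19, 3 were lower, Oprm1, Oprd1 and Drd2, against 4.7% lower of all genes tested. The mu-opioid receptor gene Oprm1 stood at 42.5, 0, 31.5 and 0 CPM against 162, 232, 169 and 160 CPM (log2 -2.58 ± 0.31, SE, adjusted p = 2.24e-06), with no overlap. The delta-opioid receptor gene Oprd1 had a log2 difference of -2.77 ± 0.61, and did not pass without male 1 (log2 -1.33, adjusted p = 0.54) or with DESeq2 (0.11). The dopamine receptor gene Drd2 had 1 UMI in Isl1 GABA nuclei against 206 in the others, a ratio of depth-scaled sums of 0.0402 with a counting interval of 0.00101 to 0.226. Drd2 did not pass without male 1 (log2 -2.51, adjusted p = 0.35), with DESeq2 (0.062) or under the same limits on both groups (0.24). The kappa-opioid receptor gene Oprk1 did not pass (log2 1.80 ± 0.62, adjusted p = 0.087). Htr2c, a serotonin receptor gene, stood at 1190, 2851, 460 and 2214 CPM against 914, 1067, 884 and 765 CPM, so that male 1 went the other way than the rest (log2 0.22 ± 0.28, adjusted p = 0.76).

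Of 31 GABA-A and glutamate receptor subunit genes 29 were tested, and 3 were higher, 6 lower and 20 did not pass. Their median log2 difference was -0.08. Over all genes tested 2.22% were higher and 4.7% lower. Gabra2 (log2 0.94 ± 0.21), Gabra4 (0.89 ± 0.26) and Gabrb1 (0.78 ± 0.21) were higher. Grin2c (log2 -3.06), Grin3a (-1.47), Gria3 (-1.24), Grm7 (-1.20), Grm5 (-1.01) and Gria4 (-0.72) were lower. None of these 9 calls held with DESeq2, whose adjusted p ran from 0.054 (Gabra2) to 0.41 (Grin3a). Without male 1, Gabra4 (log2 0.57, adjusted p = 0.62), Gabrb1 (0.58, adjusted p = 0.28), Gria3, Gria4 and Grin2c did not pass, and without male 2 Gabra4 alone of the 9 did. Grm5 and Grm7 did not pass without female 1. The AMPA receptor subunit gene Gria2 stood at 1479, 1970, 1938 and 2043 CPM against 1737, 1829, 1796 and 1699 CPM and was found in all 136 nuclei.

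Markers of other cells were low but not absent. For the counts below, the shares over all genes tested were 2.22% higher and 4.7% lower. Of 8 oligodendrocyte genes, 6 were lower in Isl1 GABA nuclei (log2 -0.78 to -1.41), with summed levels of 259 to 598 CPM against 565 to 1278 CPM. None of the 6 passed with DESeq2, without male 1 or without male 2. Precursor, astrocyte and microglia lists had no gene past the test among 3, 4 and 3 tested. Microglia genes summed to 289 CPM in male 2 and to at most 8.50 CPM in the other libraries, and C1qa and C1qb were each found in 1 nucleus. Of 2 tested vascular genes Pdgfrb was higher, and it was found in 13 Isl1 GABA nuclei, 10 of which lay among the Hdc-positive nuclei of the cluster described below. Among 6 neuron genes, Snap25 and Tubb3 were lower (log2 -0.66 and -0.69), and neither passed with DESeq2 or with any of the 3 libraries left out. Of 9 striatal projection neuron genes, 6 were tested, with Rgs9 and Rarb higher (log2 1.33 and 1.70) and Tac1 and Penk lower. Rgs9 did not pass with DESeq2 (adjusted p = 0.20) or without male 1 (0.56). The part of these other cells' transcripts in the results was not tested.

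Dopamine, glutamate, acetylcholine and serotonin markers gave a mixed picture. Of all genes tested, 2.22% were higher and 4.7% lower. Of 7 tested dopamine genes of 10, Slc18a2 and the decarboxylase gene Ddc were higher (log2 3.67 and 1.49), Drd2 was lower, and Th, the gene of the rate-limiting enzyme of dopamine synthesis, did not pass (log2 -0.32 ± 0.74) and was found in 6 nuclei. Pitx3 was at 0. Ddc did not pass with DESeq2 (adjusted p = 0.16), without female 1 (0.13) or without male 1 (0.10). Slc17a6, a vesicular glutamate transporter gene, was higher (log2 2.00 ± 0.60, SE, adjusted p = 0.041), from 8.50, 0, 46.7 and 0 CPM, and 14 of the 15 nuclei that carried it were Hdc-negative ones of male 1. DESeq2 did not call it (log2 1.16, adjusted p = 0.89), and it could not be tested without male 1. Of 2 tested cholinergic and motor neuron genes Prph was higher. Chat, the gene of the acetylcholine-synthesis enzyme, was too low to be tested, with 5 UMIs in Isl1 GABA nuclei and 4 in the others, a ratio of depth-scaled sums of 10.3 with a counting interval of 2.23 to 52.1. Slc18a3, Isl2 and Mnx1, which also define such neurons, were at 0. No serotonin gene could be tested, and Slc6a4 and Fev were at 0.

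To see how the nuclei varied among themselves, the 1301 GABA nuclei of both kinds were clustered without the gating genes, the listed genes or the sex genes, which gave 21 clusters. Clusters 3, 15 and 16 held 82, 19 and 23 of the 136 Isl1 GABA nuclei, and 20, 4 and 0 other GABA nuclei. The remaining 12 were spread over 6 clusters, and 4 of them lay in clusters led by oligodendrocyte or microglia genes. As nuclei of 1 group were used to make the clusters, the values that follow describe them and are not tests. Clusters are left unnamed.

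Cluster 16 came from every library, with 4, 4, 7 and 8 nuclei. All of its 23 nuclei had Hdc, at 2071, 1736, 2422 and 2550 CPM, a narrower range than the 190 to 1736 CPM over all Isl1 GABA nuclei. Gad1 was in all 23 and no Gad2 UMI was read in them. The 2 Hdc-positive Isl1 GABA nuclei with Gad2 lay in other clusters. In cluster 16 the leading genes after Hdc were Prss23, Slc18a2, Plscr4, Pdgfrb, Maob, Wif1, Plod2, Prph and Npl. Htr2c was found in 21 of the 23, Hcrtr2, Prph, Maob and Lef1 in 19 each, and Gal in 14. Cluster 3 had 8, 0, 70 and 4 Isl1 GABA nuclei. Its leading genes included Pmch, Agrp, Cartpt, Lef1, Pomc, Gal and Gpc3. Nearly all Pmch UMIs, 71 of 78 Pomc UMIs and 74 of 85 Gal UMIs of its Isl1 GABA nuclei were in 1 nucleus each. Foxp2 was found in 41 of its 82 Isl1 GABA nuclei, Ddc in 31, Lef1 in 33, and Esr1, Pgr and Prlr in 23 each. In 59 of the 82 none of Agrp, Pomc, Pmch, Cartpt, Gal, Sst, Hdc and Trh reached 3 UMIs.

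Cluster 15 held 19 Isl1 GABA nuclei, all of male 1, and its 4 other GABA nuclei were of male 1 too. None of the 14, 4 and 15 Isl1 GABA nuclei of female 1, female 2 and male 2 fell there, which allows shares of up to 21.4%, 75.0% and 20%. Its leading genes were Dnah11, Calcrl, Atp6ap1l, Gda, Pth2r, Zfp831, Calcr, Calb1, Sntb1 and Dkk2. Dnah11 was in 18 of the 19 nuclei, Calcr in 17, Sst in 13, and Esr1 and the calcium-binding protein gene Calb1 in 11 each. No Hdc, Agrp, Lef1 or Gal UMI was found there. A cluster of 1 library may be that library and not a type of cell.

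**Figure D3:**
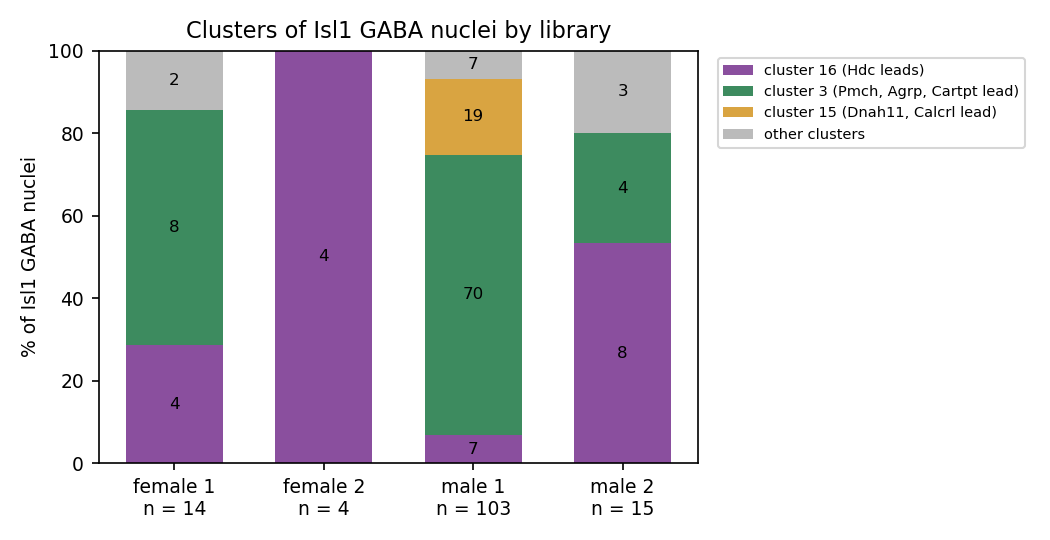
Percentage of the Isl1 GABA nuclei of each library that fell in clusters 16, 3 and 15 and in other clusters, with the number of nuclei written in each segment. Cluster 16 holds 4 of 14, 4 of 4, 7 of 103 and 8 of 15 nuclei, and cluster 15 appears in male 1 only.

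**Figure D4:**
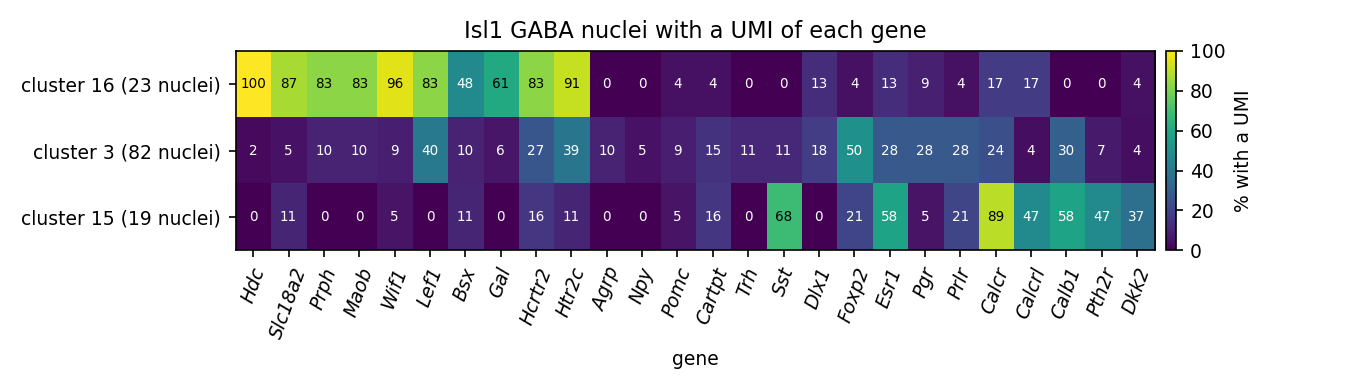
Percentage of Isl1 GABA nuclei with at least 1 UMI of each gene (columns), for clusters 16, 3 and 15 (rows), with the value written in each cell. Hdc is at 100 in cluster 16, and Sst and Calcr are highest in cluster 15.

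Because male 1 gave 103 of the 136 nuclei, the comparison was repeated without it. In female 1 and male 2 alone, 359 of 10128 genes passed (3.54%), 141 higher (1.39%) and 218 lower (2.15%), and 301 of them were among the 785 in the same direction. Without male 2 the count was 472. Among the list genes and named genes that had passed, 63 could be tested without male 1, and all 63 kept their direction. The largest increases and decreases were named only if every tested library had the same direction, so for them this was nearly fixed by the rule. Of the lists, the midbrain factors then had 3 genes lower of 15, the forebrain factors 2 higher of 6, the other hypothalamic peptides 1 higher and 3 lower of 8, the hormone receptors 1 higher and 2 lower of 13, the opioid and monoamine receptors 1 lower of 11, the receptor subunits 1 higher and 4 lower of 28, and the oligodendrocyte genes none of 8. The larger set includes the smaller one, so the 2 sets of values are not independent. Hdc (log2 11.57), Prss23 (7.85), Bsx (7.68), Lef1 (7.36), Pdgfrb (6.45) and Gal (5.83) passed without male 1, as did Meis2, Pax3, Oprm1 (-2.83) and Penk (-3.51). Calcr, Cartpt and Pax7 did not.

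**Figure D5:**
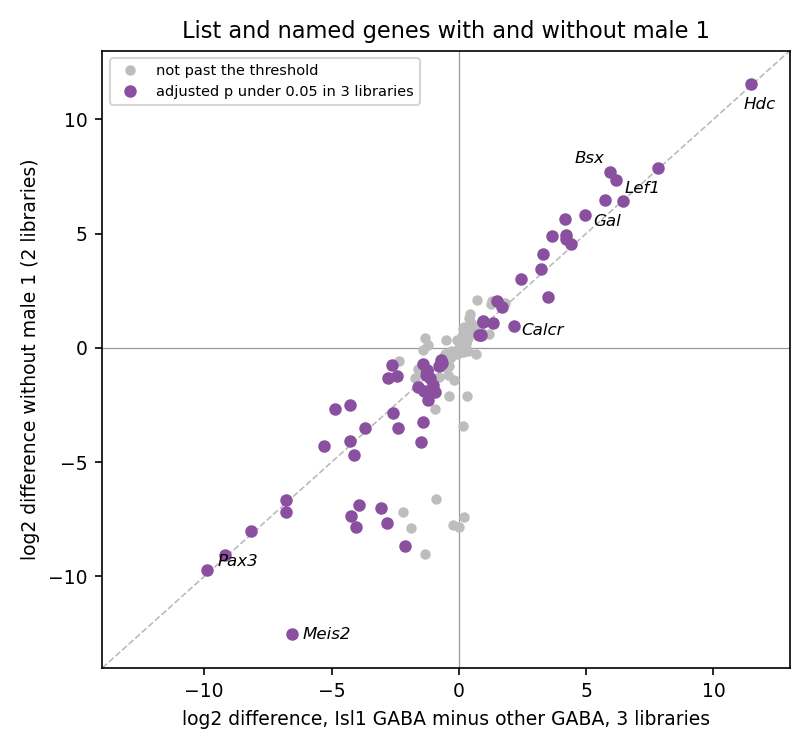
Log2 difference, Isl1 GABA minus other GABA nuclei, of list genes and named genes in female 1, male 1 and male 2 (horizontal) and in female 1 and male 2 only (vertical), with the dashed line marking equal values and purple points those past the threshold in the 3 libraries. All 63 purple points have the same sign on both axes, and points near -7 or lower include genes without a UMI in the 2 remaining libraries. The largest increases and decreases were named only if every tested library had the same direction, so their shared sign was nearly fixed by that rule.

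Sex could be compared within Isl1 GABA nuclei only as female 1 against male 1 and male 2, so the female side rests on 1 pool of rats and is assumed to vary as the male side did. Of 3988 genes tested, 43 passed (1.08%), 19 higher and 24 lower in the female library. With all 4 libraries none of 2823 genes passed by edgeR (114 at an unadjusted p under 0.05), and in the 3 libraries DESeq2 called 4. The genes of lowest p were Ebf2, Sox6, Pmch, AC241873.1 and Shisa6. AC241873.1 was among the sex genes left out of the clustering. Ebf2, Sox6 and Shisa6 were among the leading genes of cluster 5, which held 2 Isl1 GABA nuclei, both of female 1. Ebf2 had 45, 0, 6 and 1 UMIs, and the 45 were in 3 nuclei of female 1. Sox6 had 95, 0, 76 and 2 UMIs, and 63 of the 95 were in 1 nucleus. Shisa6 had 110, 0, 105 and 8 UMIs, and 75 of the 110 were in 1 nucleus. AC241873.1 had 0, 2, 361 and 27 UMIs in 0, 1, 96 and 12 nuclei, and 1107 of the 1112 Pmch UMIs were in 1 nucleus of male 1.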

How the data were processed

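Raw UMI counts per gene and barcode were used as deposited by the authors in 4 matrices (32883 genes). Per the submitters' processing notes Cell Ranger and rn6 were used, and the file headers give software version 3.0.2; the aligner and annotation were not given in the sources used here. The smallest barcode total was 501 UMIs, and nothing says that free RNA or doublets had been removed. The 4 libraries held 19714338 to 25824289 UMIs. All barcodes that met the rule were kept, doublets included; Scrublet (scanpy 1.11.5) scores at 0.8% per 1000 barcodes marked 980 barcodes, and its own threshold 458.

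Counts were summed per library and group. Isl1 GABA and other GABA sums were compared with library as a block, since both come from the same pooled rats, in libraries with at least 10 nuclei of each. The quasi-likelihood test of edgeR 4.0.16 was run in R 4.3.3 after filterByExpr and TMM scaling, with Benjamini-Hochberg adjustment, and SE is the log2 difference over the square root of F. Isl1, Gad1, Gad2, Slc32a1 and Slc6a3 were left out of tests. DESeq2 1.42.0 served as another test of the same sums. The exact permutation test for shares went through all assignments of the libraries to the sexes. Exact Clopper-Pearson 95% intervals came from scipy 1.17.1 and cover counting error only, as do the limits from 3 counts. Shares thinned to 2000 UMIs are expected values, and 8 shallower comparison nuclei were left out of them. Clustering used 2000 variable genes, 20 principal components, 15 neighbours and Leiden resolution 1 (leidenalg 0.10.2).

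The members and gene lists were chosen with earlier results of these data known. Named genes were the gating and marker genes, list genes, the 15 largest increases and 10 largest decreases among called genes with a mean of at least 20 CPM in the higher group and 1 direction in all tested libraries, and the 5 called sex genes of lowest p. Genes in counts of nuclei and clusters, such as Maob and Wif1, and single-nucleus values were picked after the values were seen. Dlx6, Nms, Nr3c1 and Pecam1 were not matched by symbol. Alternatives were DESeq2, size factors from DESeq2, unfiltered genes, the block, each library left out, high doublet scores removed, Isl1 of at least 2, total of at least 5000 UMIs, a quality filter (200 genes, 5% mitochondrial), matched gates and other denominators. Results of 3 list genes are not reported here, and the lists are counted without them.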

Additional observations from a re-analysis of the deposited data

Results flagged for a closer look

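The share of Isl1 GABA nuclei in male 1 stood apart from the other 3 libraries by the gap to its nearest neighbour relative to the range of the 4. It was 3.32% of barcodes with at least 2000 UMIs (gap over range 0.906), 28.1% of GABA nuclei (0.860) and 2.84% of all deposited barcodes (0.942). The share of GABA nuclei joins the unlike limits of both kinds. Chance flags about 1 in 20 such groups, and the 3 shares have the same numerator. The libraries of both sexes were pooled for this comparison, since each sex has 2.

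Isl1 was also found outside the GABA gate. Of barcodes with at least 2000 UMIs, 26 had Isl1 without Gad1 or Gad2, as 4, 0, 21 and 1 in female 1, female 2, male 1 and male 2. Of these, 11 had Slc17a6, 22 had Snap25, 3 had Pomc and 1 had Agrp, and none had Chat or Slc18a3.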

How the results depend on the processing

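The number of genes that differed between Isl1 GABA and other GABA nuclei was 785. It stayed within 1.5 times of that under 10 alternatives besides those that left out a library, and 982 were called with no replicate block. It was 280 with DESeq2, where the share of higher calls moved from 32.1% to 49.6%, 264 with matched gates (libraries with any nuclei), and 470 without Hdc-positive nuclei, and 359 to 785 with 1 library left out (359 without male 1, 472 without male 2). Matched gates and the removal of Hdc-positive nuclei or of a library leave fewer nuclei or sums, and the cause for DESeq2 was not tested. Of 72 genes named or called in lists (Maob, Wif1 and Hrh3 were picked after their values were seen), 20 passed in the same direction under every alternative that tested them, among them Hdc, Lef1, Gal, Bsx, Dlx1, Meis2 and Oprm1. The alternatives that tested a gene differed, as Bsx was not tested with matched gates and Hdc was not tested without Hdc-positive nuclei. Over 1185 such values 967 passed in the same direction, 217 kept the direction without passing and 1 reversed, Maob (-0.62) without Hdc-positive nuclei.

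The 43 sex calls became 4 with DESeq2, 10 with its size factors, 11 without high doublet scores, and 0 with libraries with any nuclei (114 at an unadjusted p under 0.05), with Isl1 of at least 2 UMIs (23) or with a total of at least 5000 UMIs (69). With the replicate number as a block over all 4 libraries, 41 were called, 22 of them shared with the 43 in the same direction. The numbers pair no animals across sexes, and the 3 libraries of the test left no degrees of freedom for a block. Leaving out female 2 changed nothing, since it did not enter, and leaving out any other library left no test.

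The difference in share between the sexes was -3.07 to -0.0671 percentage points with 1 library left out, negative and not past the threshold under all alternatives. Isl1 of at least 2 UMIs, matched gates and leaving out Hdc-positive nuclei left fewer than 2 libraries with 10 nuclei, so they were run on libraries with any nuclei, chosen after seeing the data. Depth limits what is said of genes at 0: over all Isl1 GABA nuclei 3 counts are 2.56 CPM.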
